A study of Homo sapiens with 15 samples.

Results

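The genes described here are MYC and 9 genes of ribosome biogenesis and nucleotide or polyamine synthesis: CAD, NCL, NOP56, NOP58, FBL, NOLC1, POLR1B, ODC1 and WDR43. They were chosen by gene symbol, and 7 of the 10 (MYC, CAD, NCL, NOP58, FBL, NOLC1 and POLR1B) had a probe set with that symbol, 1 each, among 17687 genes measured. NOP56, ODC1 and WDR43 are not analysed here. MYC and CAD were selected on their measured values in these same arrays, so their levels and differences are given as a description with no test. The standard errors and intervals given for them describe only spread between arrays, with each gene's spread drawn by the fit toward that of all genes. They do not allow for this selection and are not to be read as tests of MYC or CAD. The other 5 measured genes were tested, in a fit across all 17687 genes.

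Expression was measured on 15 Affymetrix whole-transcript arrays with RNA from C42B, an established human prostate cancer line derived from LNCaP that grows without androgen. All cells had 6 h of exposure before lysis. The groups were vehicle (0.125% DMSO, 3 arrays), 10 µM enzalutamide (2 arrays), 15 µM PF-543 (3 arrays), 15 µM ABC294640 (1 array), 10 µM enzalutamide with 15 µM PF-543 (3 arrays) and 10 µM enzalutamide with 15 µM ABC294640 (3 arrays). Enzalutamide is an antagonist of the androgen receptor, while PF-543 inhibits sphingosine kinase 1 and ABC294640, also called opaganib, inhibits sphingosine kinase 2. The design asks what each agent does alone and what a sphingosine kinase inhibitor does to the response to enzalutamide. The labels do not say whether arrays of a group came from separate cultures. The p-values therefore reflect only the spread between these arrays, which may be technical, and the number of arrays limits the precision. One cell line was used, and results of bulk RNA cannot tell a change in the number of expressing cells from a change in RNA per cell.

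MYC is a transcription factor that pairs with MAX and binds E-box sequences near the start sites of many growth genes. Ribosome biogenesis is among the processes it is best known to drive: RNA polymerase I copies the ribosomal RNA genes in the nucleolus, small nucleolar ribonucleoproteins modify the transcript, and processing factors cut and fold it into the subunits. Nucleotide synthesis, in which CAD carries out the first steps of the pyrimidine pathway, supplies the building blocks. In prostate cancer cells MYC and the androgen receptor are both known drivers of growth.

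Promoter sequence was searched for the E-box that MYC binds, in the measured genes for which a window was at hand. RefSeq promoter windows (assembly GRCh38.p14, 300 bases around a start site) were matched by symbol for CAD, NCL, FBL and POLR1B among the measured genes. No window was matched for MYC, NOP58 and NOLC1, and genes without a probe set are not described. The E-box CACGTG, which reads the same on both strands, occurred in 7.26% of all 35116 windows, the CCAAT box (CCAAT or ATTGG) in 34.6% and the GC box (GGGCGG or CCGCCC) in 45%. FBL held an E-box, with its first base 7 bases into the transcript. CAD, NCL and both POLR1B windows held none, which says only that these letters are not in these windows. The FBL stretch around the E-box (in capitals) lies on the minus strand at chr19:39846359-39846382, and the 150 bases before the start sites of CAD (plus strand, chr2:27217219-27217368) and NCL (minus strand, chr2:231464485-231464634) are shown with their CCAAT and GC boxes in capitals. CAD had 2 GC boxes in the stretch shown, and NCL 1 GC box and 1 CCAAT box on the opposite strand. These matches are a description and not evidence of binding.
FBL: gctcttttcCACGTGcgaaagccc
CAD: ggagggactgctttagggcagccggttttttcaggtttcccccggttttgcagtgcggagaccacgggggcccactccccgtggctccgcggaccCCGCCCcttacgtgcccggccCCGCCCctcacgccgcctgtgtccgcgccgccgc
NCL: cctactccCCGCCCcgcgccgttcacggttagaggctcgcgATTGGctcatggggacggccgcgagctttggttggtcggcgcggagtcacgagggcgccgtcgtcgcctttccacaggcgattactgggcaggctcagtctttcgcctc

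The DMSO arrays stood apart from the rest. The first principal component (15.3% of the variance) placed the 3 DMSO arrays between 18.9 and 24.8 and the 12 arrays of treated cells between -11.6 and 0.0296. All 5 comparisons with DMSO share these 3 arrays, so differences are also given below between treated groups, without DMSO. The 2 enzalutamide arrays are likewise shared. They enter the comparison with DMSO and, with the opposite sign, those of an inhibitor added to enzalutamide. An error in these arrays would raise a gene in the former and lower it in the latter. All pairs of arrays correlated at 0.9942 to 0.9968, and no 2 arrays were identical. Of the prostate epithelial markers, 8 of 10 were measured, with mean log2 values of 9.62 (TMPRSS2) to 15.9 (KLK3), while the 12 measured of 15 markers of leukocytes, fibroblasts, endothelium and basal epithelium had means of 3.74 (LUM) to 9.15 (COL1A2). The summed log2 level of those 12 was 67.5 to 69.17 on DMSO arrays and 65.38 to 68.27 on treated arrays, and its part in the results was not tested. With enzalutamide against DMSO, 0 of these 12 passed the test (limma; 2 with an unadjusted p under 0.05). Of the 8 prostate markers 2 passed: TMPRSS2, an androgen-responsive protease gene, fell (log2 -1.06, adjusted p = 0.000604) and HOXB13, a homeobox factor of the prostate, rose (log2 0.75, adjusted p = 0.00578).

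MYC was lowest in vehicle and highest with enzalutamide, alone or with ABC294640. Its log2 values, on the scale of the deposited table, were 13.99, 14.07 and 13.98 on the DMSO arrays. The enzalutamide arrays read 14.60 and 14.59. The PF-543 arrays read 14.24, 14.32 and 14.20, and the ABC294640 array 14.31. With enzalutamide and PF-543 together the values were 14.45, 14.33 and 14.34, and with enzalutamide and ABC294640 together 14.54, 14.55 and 14.66. All 12 treated arrays lay above all 3 DMSO arrays. In order of their means, the groups ran from DMSO through PF-543, ABC294640, enzalutamide with PF-543 and enzalutamide with ABC294640 to enzalutamide. Neighbours in that order overlapped for PF-543 and ABC294640, and for the last 2 groups, which differed by 0.01. The gap of 0.06 between ABC294640 and enzalutamide with PF-543 was free of overlap, but rests on a single ABC294640 array and equals the within-group SD of 0.06.

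As differences from DMSO, MYC was 1.5-fold higher with enzalutamide (log2 0.58, SE 0.09, 95% interval 0.39 to 0.78). It was 0.24 higher with PF-543 (0.07 to 0.41) and 0.30 with ABC294640 (0.05 to 0.54). With the combinations it was 0.36 higher for PF-543 (0.19 to 0.53) and 0.57 for ABC294640 (0.40 to 0.74). Without DMSO, the mean enzalutamide effect over the arrays with either inhibitor was 0.20 (SE 0.07, 95% interval 0.05 to 0.35), or 1.15-fold. It was 0.12 when enzalutamide was added to PF-543 (-0.05 to 0.29) and 0.27 when it was added to ABC294640 (0.03 to 0.52). Set against the effect of enzalutamide on vehicle-treated cells, these differed by -0.46 (-0.72 to -0.20) and -0.31 (-0.62 to 0), 2 values that include the DMSO arrays. MYC was 1.17-fold lower with enzalutamide and PF-543 than with enzalutamide alone (log2 -0.22, -0.42 to -0.03), and the arrays did not overlap. With ABC294640 added, the difference from enzalutamide alone was -0.01 (-0.21 to 0.18). Leaving out each array in turn gave a MYC difference between enzalutamide and DMSO of 0.56 to 0.61. For the mean enzalutamide effect without DMSO the range was 0.18 to 0.21. The single ABC294640 array enters this effect and was never left out. Because MYC was chosen from these values, its intervals describe spread, and an interval that excludes 0 is no test.

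**Figure D1:**
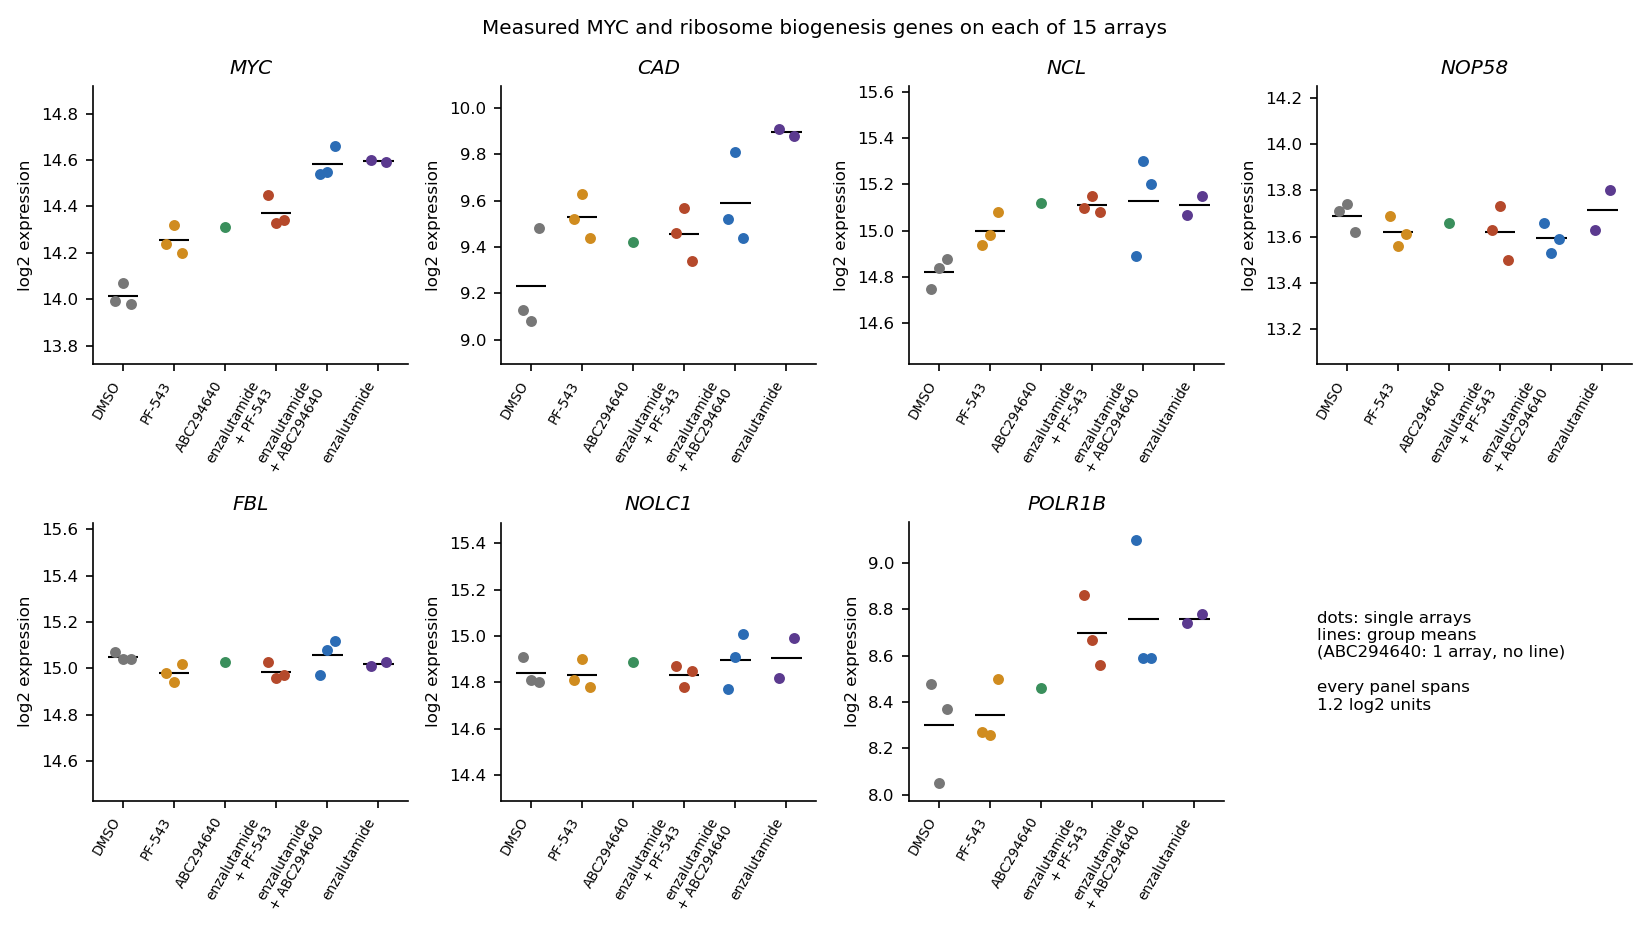
Log2 expression of the 7 measured genes on every array, by treatment group, with the group mean as a line; every panel spans 1.2 log2 units around its own centre. MYC and NCL have all 12 treated arrays above the 3 DMSO arrays, and NOP58, FBL and NOLC1 show spans of group means of 0.12, 0.08 and 0.08.

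CAD, a single protein that carries the first enzymes of pyrimidine synthesis, was highest with enzalutamide alone. Its DMSO arrays read 9.13, 9.08 and 9.48, so 1 of the 3 lay well above the others. The enzalutamide arrays read 9.91 and 9.88, above every other array in the series. The PF-543 arrays read 9.52, 9.63 and 9.44, the ABC294640 array 9.42, and the combinations 9.46, 9.57 and 9.34 with PF-543 and 9.52, 9.81 and 9.44 with ABC294640. Enzalutamide was thus separate from all other groups, while the remaining neighbours in the order of means overlapped. CAD was 1.59-fold higher with enzalutamide than with DMSO (log2 0.66, SE 0.14, 95% interval 0.36 to 0.97), and 0.30 higher with PF-543 (0.03 to 0.57). The difference from DMSO was 0.19 with ABC294640 (-0.20 to 0.58), 0.23 with enzalutamide and PF-543 (-0.05 to 0.50) and 0.36 with enzalutamide and ABC294640 (0.09 to 0.63). It was 1.36-fold lower with enzalutamide and PF-543 than with enzalutamide alone (log2 -0.44, -0.74 to -0.13), and with ABC294640 added the difference from enzalutamide alone was -0.30 (-0.61 to 0). The enzalutamide effect with PF-543 minus that on vehicle was -0.74 (-1.15 to -0.33). The mean enzalutamide effect over both inhibitors, without DMSO, was 0.05 (-0.19 to 0.29). Leaving out each array in turn gave 0.59 to 0.79 for enzalutamide against DMSO. Leaving out each array but the single ABC294640 array gave -0.01 to 0.09 for the mean effect without DMSO. CAD was also chosen from these values, so its intervals describe spread, and excluding 0 is no test.

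Among the 5 tested genes, NCL and POLR1B had the larger differences, and none passed an adjusted p of 0.05 in any of the 14 comparisons (limma, Benjamini-Hochberg over all genes). NCL encodes nucleolin, a nucleolar protein that binds ribosomal RNA and its chromatin. Its DMSO arrays read 14.75, 14.84 and 14.88. The enzalutamide arrays read 15.07 and 15.15, the PF-543 arrays 14.94, 14.98 and 15.08, and the ABC294640 array 15.12. The combinations read 15.10, 15.15 and 15.08 with PF-543 and 14.89, 15.30 and 15.20 with ABC294640. All 12 treated arrays lay above all DMSO arrays, with the lowest treated array at 14.89 against a highest DMSO array of 14.88. NCL differed from DMSO by 0.29 with enzalutamide (SE 0.12, adjusted p = 0.33), by 0.29 with enzalutamide and PF-543 (SE 0.10, adjusted p = 0.162) and by 0.31 with enzalutamide and ABC294640 (SE 0.10, adjusted p = 0.182). With a trended and robust prior, adjusted p was 0.0104 and 0.0096 in the last 2 and both passed. Without enzalutamide, NCL differed from DMSO by 0.18 with PF-543 (SE 0.10, adjusted p = 0.442) and by 0.30 with ABC294640 (SE 0.15, adjusted p = 0.56). Without DMSO, NCL showed a mean enzalutamide effect of 0.06 (SE 0.09, adjusted p = 0.946).

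POLR1B, a catalytic core subunit of RNA polymerase I, had DMSO values of 8.48, 8.05 and 8.37. The enzalutamide arrays read 8.74 and 8.78, above the 3 DMSO arrays. The PF-543 arrays read 8.27, 8.26 and 8.50 and the ABC294640 array 8.46. With enzalutamide and PF-543 the values were 8.86, 8.67 and 8.56, and with enzalutamide and ABC294640 9.10, 8.59 and 8.59. All 8 arrays with enzalutamide lay above all 7 arrays without it, as they did for MYC. This split, looked at after the values were seen, held for 2 of 7 members and for 0.198% of all genes. The difference from DMSO was 0.46 with enzalutamide (SE 0.17, unadjusted p = 0.0187, adjusted p = 0.277), 0.04 with PF-543 (adjusted p = 0.928) and 0.16 with ABC294640 (adjusted p = 0.861). It was 0.40 with enzalutamide and PF-543 (SE 0.15, adjusted p = 0.184) and 0.46 with enzalutamide and ABC294640 (SE 0.15, adjusted p = 0.176). Without DMSO, POLR1B was 1.28-fold higher with enzalutamide and PF-543 than with PF-543 alone (log2 0.35, SE 0.15, adjusted p = 0.569). Against the single ABC294640 array, POLR1B was 0.30 higher with enzalutamide and ABC294640 (SE 0.22, 95% interval -0.17 to 0.77). The mean enzalutamide effect over both inhibitors was 0.33 (SE 0.13, 95% interval 0.04 to 0.61, adjusted p = 0.533). It was 0.24 to 0.37 when each array but the single ABC294640 array was left out.

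NOP58 and FBL are among the core proteins of box C/D small nucleolar ribonucleoproteins, in which FBL is the methyltransferase and NOP58 a scaffold. NOLC1 is a nucleolar chaperone of these particles. Over all 15 arrays NOP58 ranged from 13.50 to 13.80, FBL from 14.94 to 15.12, and NOLC1 from 14.77 to 15.01. Their group means spanned 0.12, 0.08 and 0.08, against within-group SDs of 0.09, 0.05 and 0.08. With enzalutamide against DMSO the differences were 0.02 for NOP58 (95% interval -0.19 to 0.24), -0.03 for FBL (-0.21 to 0.15) and 0.06 for NOLC1 (-0.15 to 0.28). The mean enzalutamide effect without DMSO lay between -0.03 and 0.02 for all 3. These intervals reach as far as 0.28 on the log2 scale, so they do not show that the levels were equal.

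**Figure D2:**
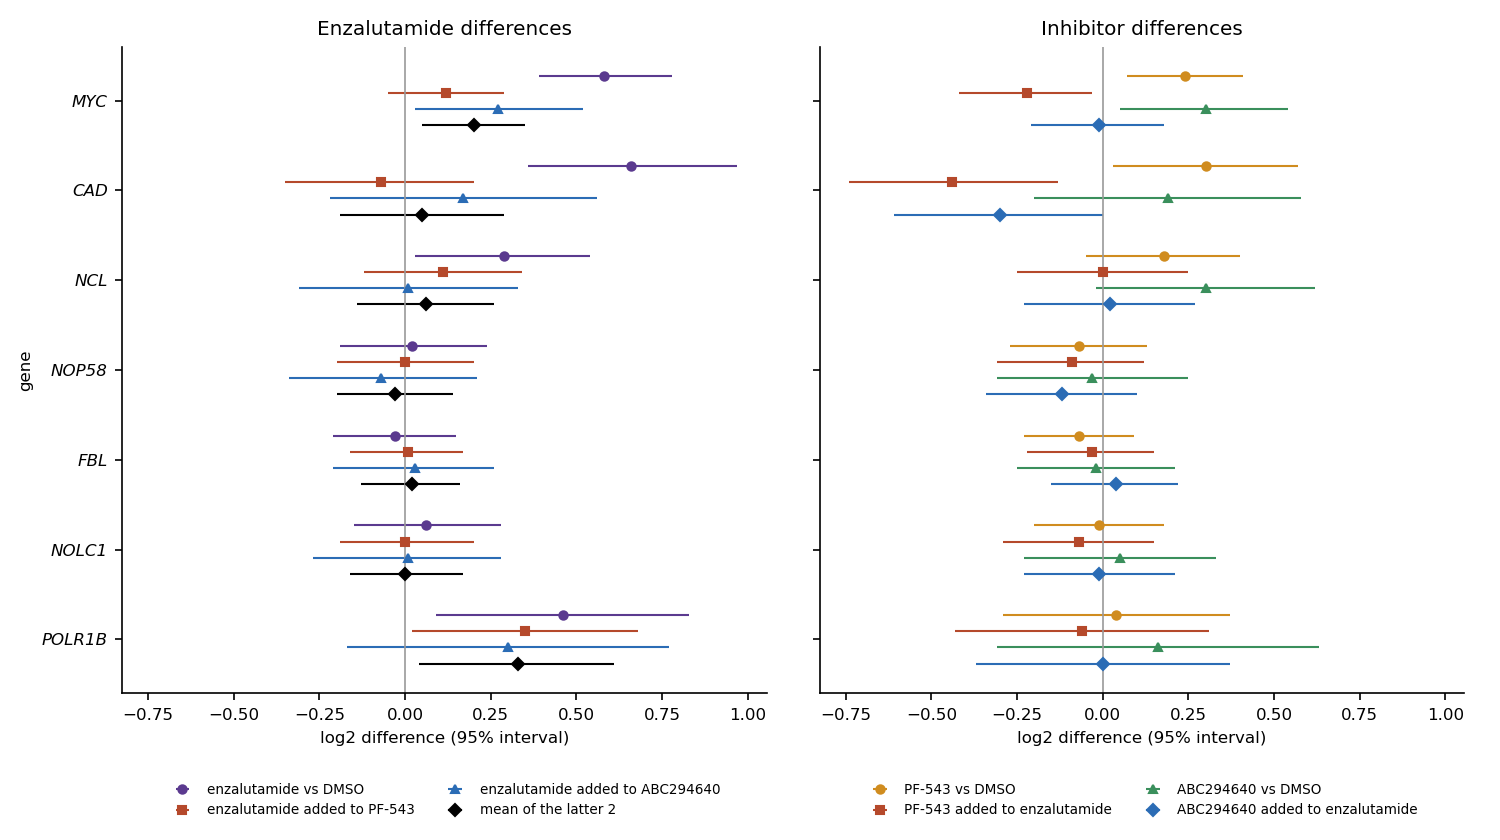
Log2 differences (points) of the 7 measured genes with 95% intervals (bars) from the limma fit, for enzalutamide on the left and for each inhibitor on the right, against DMSO or added to the other agent. MYC and CAD, chosen from results, are 0.58 and 0.66 against DMSO with enzalutamide, and the mean effect without DMSO is 0.20 and 0.05. The bars of MYC and CAD do not allow for that choice and are no test.

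Set against all genes, the counts of tested members called were 0 of 5 in each comparison. The shares of all genes called were 0.311% for enzalutamide, 0.565% for PF-543, 0% for ABC294640, 2.02% for enzalutamide with PF-543 and 0.701% for enzalutamide with ABC294640, each against DMSO. For the comparisons without DMSO they were 0.0283% (enzalutamide with PF-543 against enzalutamide), 0% (enzalutamide with ABC294640 against enzalutamide), 0.311% (against PF-543 alone), 0.0792% (against ABC294640 alone), 0.384% (mean enzalutamide effect), 0.0961% (the 2 combinations) and 0.017% (the 2 inhibitors). For the 2 tests of whether the enzalutamide effect differed with and without an inhibitor the share was 0%. Unadjusted p was under 0.05 for 0 to 2 of the 5 tested members in each of the 14 comparisons. It was for 2 of the 5 tested members with enzalutamide against DMSO, beside 12.9% of all genes, and for 1 of 5 in the mean enzalutamide effect without DMSO, beside 7.9% of all genes. The median difference of the 7 measured members was 0.29 with enzalutamide against DMSO and 0.05 in the mean effect without DMSO, beside medians of -0.01 and 0.01 over all genes. MYC and CAD, chosen from these values, are among the 7, and over the 5 tested members the medians were 0.06 and 0.02.

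Arrays of 2 groups were also compared for full separation, which needs no fit and was counted in the upward direction only. All 12 treated arrays lay above all 3 DMSO arrays for 2 of 7 members (MYC and NCL) and for 2.03% of genes. Enzalutamide lay above DMSO for 4 of 7 (MYC, CAD, NCL and POLR1B) beside 13.5% of genes, PF-543 for 2 (MYC and NCL) beside 10.2%, enzalutamide with PF-543 for 3 (MYC, NCL and POLR1B) beside 12.1%, and enzalutamide with ABC294640 for the same 3 beside 9.48%. Between treated groups, enzalutamide lay above its combination with PF-543 for MYC and CAD beside 11.2% of genes. The combination with ABC294640 lay above that with PF-543 for MYC beside 5.97%, and the combination with PF-543 above PF-543 alone for MYC and POLR1B beside 7.6%. MYC and CAD in these counts were chosen from the same arrays. FBL lay the other way, with DMSO arrays at 15.04 to 15.07 and a within-group SD of 0.05. Below these were the arrays with enzalutamide (15.01 and 15.03), PF-543 (14.94 to 15.02), ABC294640 (15.03) and enzalutamide with PF-543 (14.96 to 15.03). Those with enzalutamide and ABC294640 (14.97 to 15.12) overlapped DMSO. FBL differed from DMSO by -0.03 with enzalutamide, -0.07 with PF-543 and -0.02 with ABC294640. It differed by -0.06 with enzalutamide and PF-543 and by 0.01 with enzalutamide and ABC294640. None of these passed the test (limma, smallest adjusted p = 0.706). The share of all genes lying fully below DMSO was not counted, so the separation is not read as a fall of FBL.

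At the same concentration of 15 µM, PF-543 and ABC294640 could be compared alone and in combination. Equal concentration need not mean equal inhibition of the kinases, and inhibition is not measured by these arrays. MYC was 0.06 lower with PF-543 than with ABC294640 (SE 0.11), but the ABC294640 group was 1 array. In combination with enzalutamide, MYC was 1.16-fold lower with PF-543 than with ABC294640 (log2 -0.21, 95% interval -0.38 to -0.04), and the 3 arrays of each group did not overlap. CAD differed by -0.13 (SE 0.13), NCL by -0.02 and POLR1B by -0.06 in the same comparison. The interval for MYC and the SEs for MYC and CAD are again a description with no test.

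Other genes of the pathway were taken from lists, and no list gene of ribosome biogenesis, MYC network, nucleotide or polyamine synthesis passed the test with enzalutamide against DMSO, in the mean enzalutamide effect without DMSO, or in the combination with PF-543 against enzalutamide (limma). With enzalutamide against DMSO, 5 of 35 small subunit genes, 3 of 24 large subunit genes and 4 of 46 ribosomal protein genes had an unadjusted p under 0.05, all of them higher, beside 12.9% of all genes in either direction. In each of the other pathway lists 0 to 3 genes were higher and 0 to 2 lower at that level. Beside 47.6% of all genes above 0 with enzalutamide against DMSO, 29 of 35 genes of small subunit processing were above 0 (82.9%, median 0.13) and 18 of 24 of large subunit processing (75%, median 0.15). With PF-543 alone against DMSO they were 16 of 35 and 11 of 24 (both medians -0.02), beside 47.6% of all genes. With ABC294640 alone they were 20 of 35 (median 0.04) and 17 of 24 (median 0.06), beside 47.7%. Without DMSO, where 51.9% of all genes were above 0 in the mean enzalutamide effect, the small subunit list had 29 of 35 above 0 (median 0.09) and the large subunit list 15 of 24 (62.5%, median 0.03). With PF-543 added to enzalutamide the medians were -0.07 and -0.11, with 10 of 35 and 4 of 24 above 0, beside 50.8% of all genes. With ABC294640 added they were -0.04 and -0.02, with 16 of 35 and 9 of 24 above 0, beside 50.1%. RNA polymerase I had 10 of 13 above 0 with enzalutamide against DMSO (median 0.09) and 11 of 13 without DMSO (median 0.13). The box C/D list had 7 of 10 and 8 of 10 (medians 0.07 and 0.06), and the box H/ACA list 2 of 5 and 3 of 5 (medians 0 and 0.02).

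Ribosomal protein genes, of which 46 of 79 were measured, were above 0 in 41 of 46 with enzalutamide against DMSO (median 0.06), and in 22 of 46 (47.8%, median 0) without DMSO. A like shift was seen with the inhibitors alone against the same 3 DMSO arrays, so it was not particular to enzalutamide. The count above 0 was 38 of 46 with PF-543 (median 0.04) and 41 of 46 with ABC294640 (median 0.08, 1 array). Whether the shift lies in the shared DMSO arrays was not tested. Nucleotide synthesis had 9 of 15 above 0 with enzalutamide against DMSO and again without DMSO (medians 0.02 and 0.01). Polyamine metabolism had 5 of 10 and 4 of 10 (medians -0.07 and -0.03), the MYC network 7 of 11 and 8 of 11 (medians 0.14 and 0.03) and other MYC targets 11 of 16 and 9 of 16 (medians 0.03 and 0.02). These counts describe the lists beside all genes and carry no test of their own.

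**Figure D3:**
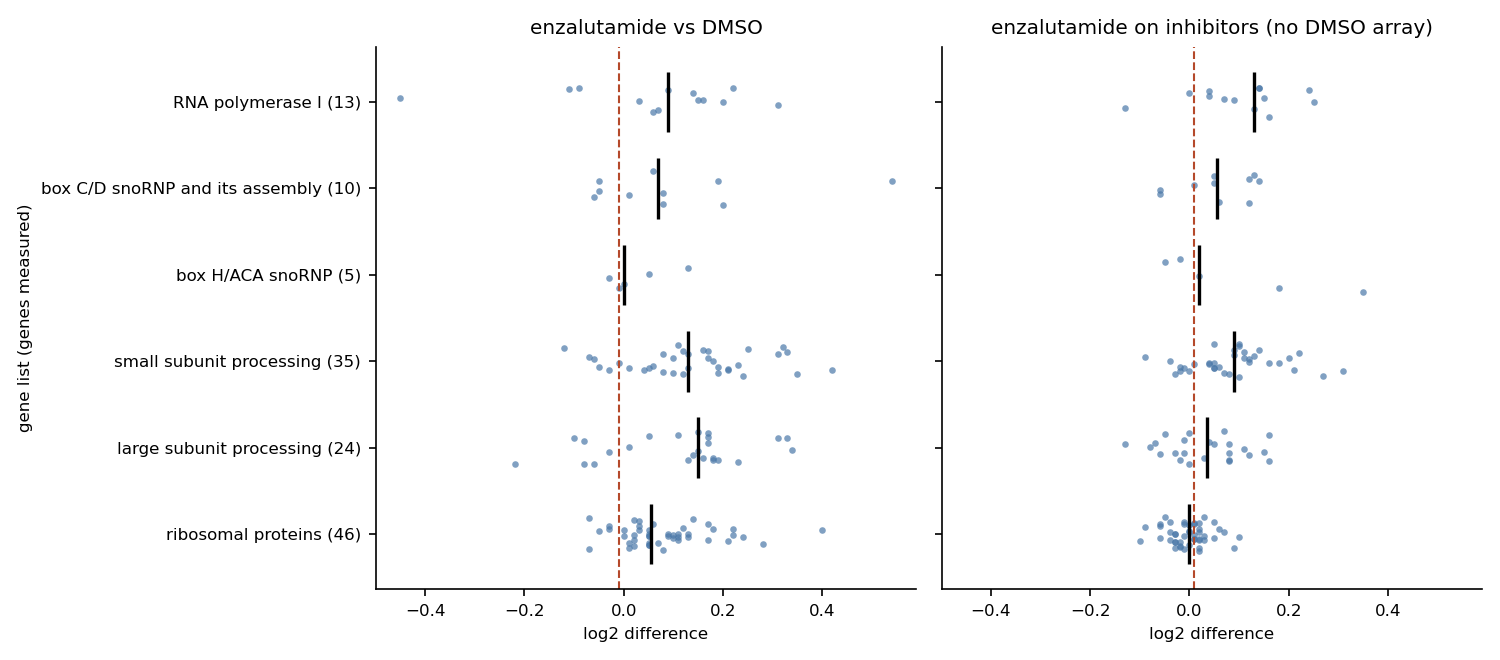
Log2 differences of each measured gene in 6 ribosome lists (points), with the list median (black bar) and the median of all genes (dashed line), for enzalutamide against DMSO and for the mean enzalutamide effect over the inhibitor arrays. The ribosomal protein median is 0.06 in the first and 0 in the second. Against DMSO it was 0.04 with PF-543 alone and 0.08 with ABC294640 alone, which are not drawn.

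Apart from prostate markers, 2 list genes passed in any of the 14 comparisons. They were 1 of 11 measured MYC network genes and 1 of 46 ribosomal protein genes. The shares of all genes called were 0.565% for PF-543 and 2.02% for enzalutamide with PF-543, each against DMSO. Single calls like these are no result about a list. MLXIP (MondoA), a glucose-responsive factor that pairs with MLX, rose with PF-543 against DMSO, 1.71-fold (log2 0.78, SE 0.11, adjusted p = 0.0103). With enzalutamide and PF-543 it rose 1.44-fold (log2 0.53, SE 0.11, adjusted p = 0.0338). Without DMSO, MLXIP was 0.39 higher with enzalutamide and PF-543 than with enzalutamide alone (SE 0.13, limma adjusted p = 0.459). It was 0.32 higher than with enzalutamide and ABC294640 (SE 0.11, adjusted p = 0.542), and neither difference passed. With PF-543 alone MLXIP was 0.65 above the single ABC294640 array. Its group means were 7.69 in DMSO, 7.83 with enzalutamide, 8.47 with PF-543, 7.82 with ABC294640, 8.22 with enzalutamide and PF-543 and 7.90 with enzalutamide and ABC294640. RPL37, a ribosomal protein, rose with enzalutamide and PF-543 against DMSO, 1.33-fold (log2 0.41, SE 0.09, adjusted p = 0.0443). It was 0.39 to 0.41 above DMSO in all 5 treated groups, with DMSO arrays at 15.34 to 15.55 and treated arrays at 15.71 to 16.02, and its mean enzalutamide effect without DMSO was 0. The call for PF-543 held when each array was left out, with adjusted p of 0.0139 to 0.0472, but not in a fit on only the arrays compared (0.124). Leaving out any single array of either group ended the 2 calls for the combination, with adjusted p of 0.0621 to 0.11 for MLXIP and 0.0582 to 0.139 for RPL37. In a fit on only the arrays compared it was 0.0843 and 0.129.

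The genes whose log2 values followed MYC most closely over the 15 arrays were NETO1 (Pearson r 0.93), HOXB13 (0.92), SELENBP1 (0.92), GATA2 (0.92) and NOL6 (0.89). Over the 12 treated arrays r was 0.83, 0.86, 0.84, 0.88 and 0.81. These correlations share the separation of the DMSO arrays, cover arrays of 6 groups and are given as a description. NOL6, a factor of small subunit processing, had group means of 11.98 in DMSO, 12.40 with enzalutamide, 12.18 with PF-543, 12.28 with ABC294640, 12.24 with enzalutamide and PF-543 and 12.43 with enzalutamide and ABC294640. For the mean of the 5 tested members, the most similar were GATA2 (0.92), ATP1B1 (0.91), MACIR (0.88), BAMBI (0.88) and EGLN3 (0.88). Over the 12 treated arrays r was 0.89, 0.88, 0.81, 0.84 and 0.85. Members were centred but not scaled for this mean. POLR1B and NCL, with spans of group means of 0.46 and 0.31, therefore weigh more in it than NOP58, FBL and NOLC1.

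Among the members themselves, likeness to MYC over 15 arrays was 0.72 for NCL, 0.69 for CAD, 0.66 for POLR1B, 0.42 for NOLC1, 0.08 for FBL and -0.17 for NOP58. Over the 12 treated arrays it was 0.36, 0.52, 0.60, 0.54, 0.56 and 0.06 in the same order. NCL, whose value over all arrays was the highest of the 6, was thus the second lowest among treated arrays. By rank of r over 15 arrays among 17686 other genes, NCL stood 203rd, CAD 297th and POLR1B 389th.

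**Figure D4:**
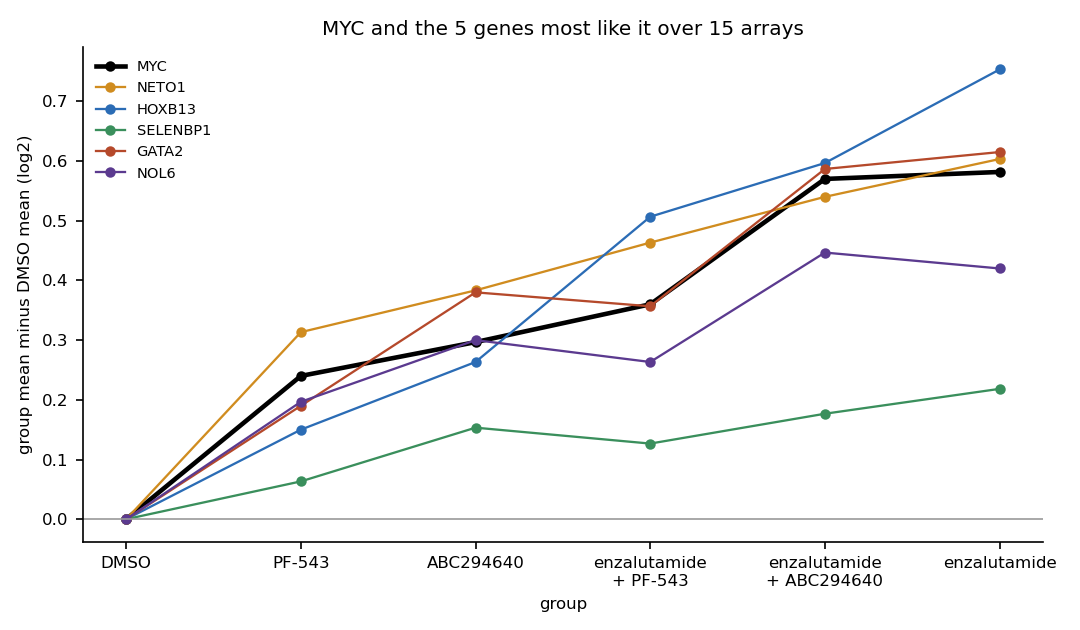
Group means of MYC and the 5 genes most like it, each as a difference from its DMSO mean, with groups placed in order of the MYC mean. The lines join separate groups and show no time course; MYC runs from 0 in DMSO to 0.58 with enzalutamide.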

How the data were processed

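Gene expression was measured on 15 Affymetrix arrays of C42B cells, and each array's group came from its labels. The authors deposited log2 values per probe set made with RMA and Transcriptome Analysis Console 4.02, per the submitters' processing notes. RMA brings arrays to a common distribution, so a shift of most genes at once is not visible in these values. The sources used here do not give the build or the RMA variant. Of 21448 probe sets, 17709 had 1 gene symbol and 3739 none in the platform annotation. Where a gene had more than 1 probe set (20 genes), that of highest mean was kept, which left 17687 genes.

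Values were used without further normalization. Group means were estimated from all 15 arrays with limma 3.58.1 in R 4.3.3 (9 residual and 3.82 prior degrees of freedom), with 14 comparisons and Benjamini-Hochberg adjustment over all genes at 0.05. Intervals are 95%. The ABC294640 group of 1 array is assumed to vary like the others. The design names 8 members to be tested, and 5 of these were measured.

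The members and lists were chosen with earlier results of these data known. There were 12 lists with 255 genes, of which 205 were measured, and 2 of them are marker lists. The rule for named genes took all members, up to 4 called genes of a list in each comparison, and the 5 genes most like MYC or the mean of the tested members. Marker genes that the rule picks are not all reported. Alternatives were quantile and cyclic loess normalization, subtracting array medians and dropping the 25% of genes with the lowest mean. A trended and robust prior, all probe sets, a threshold of 0.1 and the replicate number as a block were also used. So were fits on only the arrays compared and with each array left out, except the single ABC294640 array. A fit on only the 12 treated arrays was added after seeing the data. The fit was tested on simulated data. Figures used matplotlib 3.10.9.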

Additional observations from a re-analysis of the deposited data

How the results depend on the processing

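The count of tested members called, 0 in all 14 comparisons, was the same in 131 of 133 values under other settings and in all 82 values with an array left out. With a trended and robust prior it was 1 for enzalutamide with PF-543 and 1 for enzalutamide with ABC294640 against DMSO, NCL in both (log2 0.29 and 0.31). The replicate numbers gave no clear sign of pairing. Deviations from group means correlated at -0.04 to 0.07 (median -0.01) for arrays of different groups with the same number. With other numbers they correlated at -0.05 to 0.04 (median 0). In groups of 2 or 3 arrays this cannot show that the arrays were unpaired. With the replicate number as a block, the member median for ABC294640 against DMSO was 0.08 in place of 0.16, and that for the enzalutamide effect with minus without ABC294640 was -0.09 in place of -0.16. The block left the count of members called at 0 and ended 2 calls of list genes for enzalutamide with PF-543 against DMSO, MLXIP (adjusted p = 0.0567) and RPL37 (0.0743). RPL37 was also lost under quantile (0.0633) and cyclic loess (0.0608) normalization. The median over the 7 measured members includes MYC and CAD, chosen from these values, so its range is no sign of stability; over the 5 tested members it was 0.06 for enzalutamide against DMSO. The single ABC294640 array was never left out. With each other array left out, the median of the 7 against DMSO was 0.25 to 0.33 for enzalutamide and -0.02 to 0.13 for PF-543. It was 0.04 to 0.20 for ABC294640, 0.15 to 0.32 for enzalutamide with PF-543 and 0.22 to 0.34 for enzalutamide with ABC294640. Against enzalutamide it was -0.16 to -0.02 with PF-543 added and -0.05 to 0.02 with ABC294640 added. It was -0.01 to 0.06 for the combination against PF-543, -0.01 to 0.13 for the combination against ABC294640, 0.01 to 0.07 for the mean enzalutamide effect, -0.13 to -0.04 between the combinations and -0.08 to -0.04 between the inhibitors. For the enzalutamide effect with minus without an inhibitor it was -0.17 to -0.05 with PF-543 and -0.24 to -0.07 with ABC294640. The cause of these shifts was not tested. The differences of single members changed sign in 11 of 833 values under other settings and in 48 of 574 with an array left out, of which 1 and 1 had a main size of 0.1 or more. Over all genes, the number called with enzalutamide against DMSO was 55, and 266 with a trended and robust prior, 122 at a threshold of 0.1, 3 in a fit on only the arrays compared and 12 to 58 with an array left out. With a trended and robust prior, on only the arrays compared and with an array left out it was 547, 9 and 25 to 59 for PF-543 (100 in the report's fit), 1121, 31 and 115 to 260 for enzalutamide with PF-543 (358), 599, 23 and 49 to 77 for enzalutamide with ABC294640 (124), and 176, 48 and 40 to 56 for the mean enzalutamide effect (68). The number of arrays, and a single array for ABC294640, limit all of these.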
